A study of Mus musculus with 10 samples.

Results

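The glutathione S-transferases, aldehyde and alcohol dehydrogenases, aldo-keto reductases, carboxylesterases and cytochromes P450 were followed as 7 enzyme families through mouse induced pluripotent stem cells (iPSC) and cells in reprogramming. A gene was a member when the probe annotation gave it as the only symbol of a probe set, the symbol began with Gst, Mgst, Aldh, Adh, Akr, Ces or Cyp and its family number, and a probe set exceeded a log2 value of 4 on 2 or more arrays. Of 128 genes of these families on the array, 51 were members, out of 8599 genes in all that passed the same filter. They were 16 cytosolic and kappa glutathione S-transferases (Gst), 3 microsomal ones (Mgst), 14 Aldh, 2 Adh, 6 Akr, 1 Ces and 9 Cyp genes. Each was represented by its probe set with the highest mean, and values are the deposited log2 GCRMA values. Levels of different probe sets have no common scale, so each gene was set only against itself.

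The series held 10 arrays in 5 groups of 2. The first group was iPSC in medium with 2i (the inhibitor pair that holds mouse stem cells in the naive state) and serum, and the second was iPSC kept together with mouse embryonic fibroblasts (MEFs). The third was secondary MEFs in which the Yamanaka reprogramming factors had been expressed for 32 days, with no fraction named (day 32), and the other two were the Sox2-positive and Sox2-negative fractions of such cells. Standard embryonic stem cell medium was the default for all groups, and the labels given here name no strain, sex, passage or factor construct. The labels do not say whether arrays a and b of a group came from separate cultures, so the p-values measure the spread between these arrays, which may be technical.

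As background, these families carry out the phases of detoxification. Cytochromes P450 and alcohol dehydrogenases oxidise foreign compounds, steroids, fatty acids and retinol, aldehyde dehydrogenases and aldo-keto reductases remove the aldehydes that arise, carboxylesterases split esters, and glutathione transferases join electrophiles to glutathione. Many are most abundant in liver, lung and gut. Others serve basic metabolism in nearly every cell, such as the breakdown of amino acids, the making of proline and carnitine, or the synthesis of cholesterol and retinoic acid.

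The arrays fell into a pair of classes that bear on every comparison. On the iPSC with MEFs, Sox2-positive and Sox2-negative arrays the 18S ribosomal control read 11.35 to 13.22 at its 3' probe set, and on the 2i and day 32 arrays 5.25 to 6.55. For Actb the 3' probe set read 0.05 to 1.12 above the 5' one in the first class and 2.70 to 3.88 above it in the second. Within the first class iPSC with MEFs stood apart from the fractions, with an Actb gap of 1.08 and 1.12 against 0.05 to 0.21, a Gapdh gap of 2.53 and 3.18 against 1.03 to 1.56, and an upper quartile of 7.37 and 7.38 against 6.87 to 6.91, so the fractions against iPSC with MEFs carry that difference as well, and its part in the results was not tested. Comparisons were made mainly within a class, and where the classes differ, class and group cannot be told apart. Sox2 itself was 9.46 and 10.45 where the label says positive and 4.45 and 4.13 where it says negative. Of 12 pluripotency markers, 4 (Zfp42, Dppa2, Utf1 and Lin28a) were under 4 on both Sox2-negative arrays, although the labels call all samples iPSCs. Pou5f1 overlapped between the fractions, at 10.06 and 11.11 in the Sox2-negative and 10.92 and 10.38 in the Sox2-positive one. All other markers of that list were lower in the Sox2-negative fraction without overlap, with Nanog still at 8.86 and 7.92 and Sall4 at 8.24 and 9.44.

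The levels set out array by array show families of mixed breadth. Of the 51 enzymes, 17 were above 4 on all 10 arrays. The number above 4 on both arrays of a group was 39 in 2i, 42 at day 32, 22 in iPSC with MEFs, 24 among Sox2-positive and 30 among Sox2-negative cells. These are 76.5%, 82.4%, 43.1%, 47.1% and 58.8% of the members, beside 90.7%, 92.3%, 77.4%, 75.1% and 74.5% of all genes. The probe sets used for Gsta3, Aldh1a3 and Cyp7b1 passed the filter through the 2i arrays alone, so these 3 had to be high there. A second probe set of Aldh1a3 passed the filter as well.

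**Figure D1:**
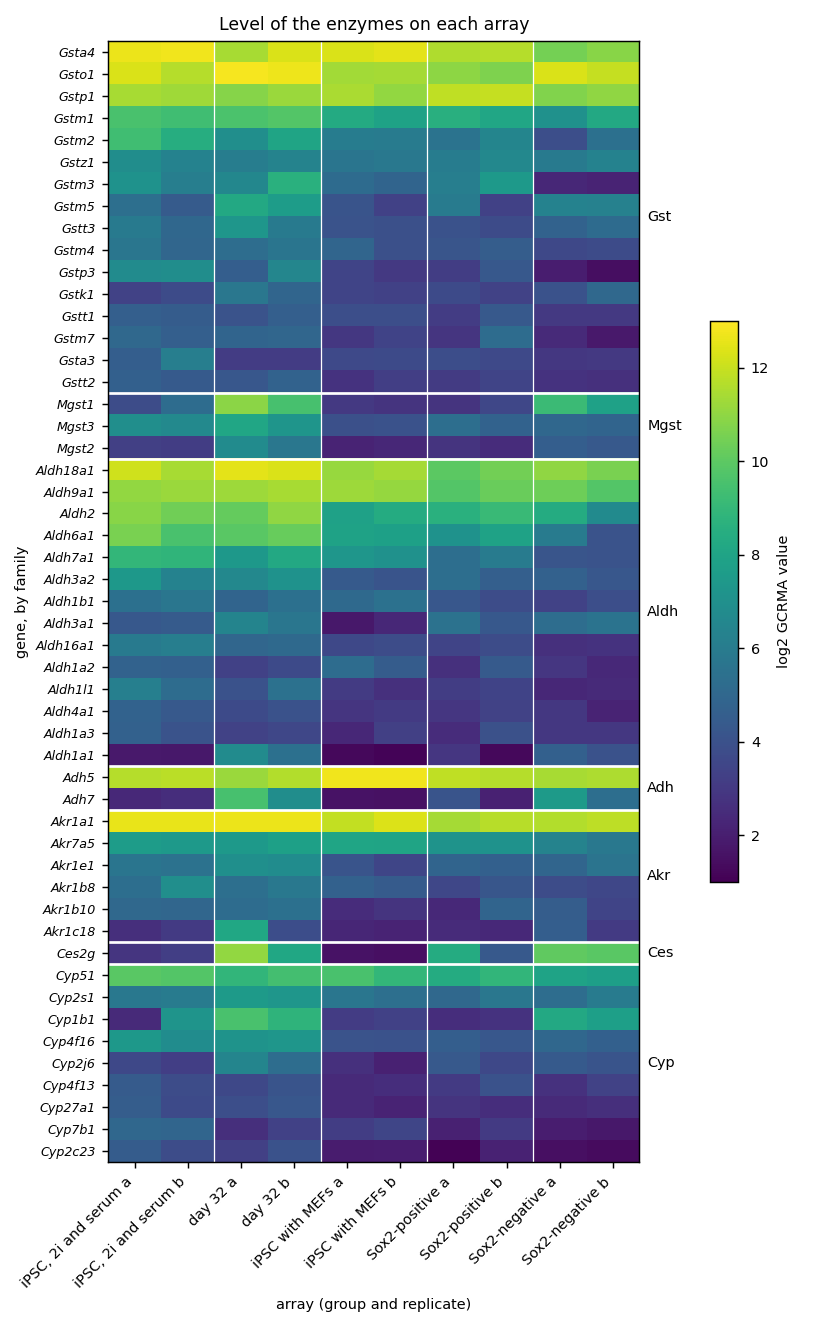
Log2 GCRMA value (colour) of each of the 51 enzymes (rows, by family) on each of the 10 arrays (columns, 2 per group). Colours can be compared along a row only. Mgst1, Cyp1b1, Ces2g and Adh7 are bright in the day 32 and Sox2-negative columns, and Gstm3 is dark in the Sox2-negative columns at 2.35 and 2.18.

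The other 77 genes stayed under the filter, and 74 of them were under 4 on all 10 arrays. They include 54 of 63 Cyp, 8 of 9 Ces and 8 of 14 Akr genes, but 2 of 18 Gst and 3 of 17 Aldh genes. By the probe sets used, the members nearest the limit were Cyp2c23, Aldh1a3 and Cyp4f13, whose second highest values were 4.01, 4.07 and 4.13. Just outside lay Cyp21a1 at 3.99, Akr1c14 at 3.93 and Cyp39a1 at 3.81. Akr1c14 read 6.08 on a single array.

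The members with the highest mean value in each family are described next, which ranks no gene's abundance above another's. Akr1a1, an aldehyde reductase, lay between 11.40 and 12.66 on all 10 arrays, and Adh5, the glutathione-dependent formaldehyde dehydrogenase, between 11.18 and 12.75. Aldh18a1, which makes the proline precursor pyrroline carboxylate, spanned 9.97 to 12.51, and Aldh9a1, an enzyme of carnitine synthesis, 9.80 to 11.41. Gsta4, which conjugates the lipid aldehyde hydroxynonenal, spanned 10.48 to 12.76, and Gsto1, a thiol transferase that also reduces dehydroascorbate, 10.68 to 12.85. Each of these 6 thus stayed within about 3 log2 units or less. Cyp51, the lanosterol demethylase of cholesterol synthesis, ran from 7.79 to 9.93, and Cyp2s1 from 5.06 to 7.55.

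The fractions of day 32 cells lie within 1 array class and ask how Sox2-positive cells differ from the rest. In the Sox2-positive fraction 6 of the 51 enzymes were called higher and 5 lower, 21.6% in all. Of all 8599 genes 12.5% were called, 6.86% higher and 5.65% lower (limma, adjusted p under 0.05). By family, 2 Gst genes rose and 1 fell, no Mgst gene rose and 2 fell, 3 Aldh genes rose and 1 fell, 1 Akr gene rose, 1 Cyp gene fell, and no Adh or Ces gene was called. The median difference was 0.71 over the Gst, 0.54 over the Aldh and 0.14 over the Cyp genes, -1.81 over the Mgst, -1.53 over the Adh and -0.27 over the Akr genes and -3.65 for Ces2g, beside 0.27 over all members and -0.02 over all genes.

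The promoters of the members with the largest differences between the fractions are given from RefSeq, with that of Gstm5, the gene of the same cluster as Gstm3 whose difference had the other sign. Each is the 250 bases before the first listed transcription start, read 5′ to 3′ in the direction of the gene. Capitals mark matches to the core of the antioxidant response element (TGACNNNGC, bound by Nrf2) or of the xenobiotic response element (GCGTG, bound by the aryl hydrocarbon receptor), searched on both strands.
Mgst1 promoter, GRCm38.p6 chr6:138140277-138140526, plus strand: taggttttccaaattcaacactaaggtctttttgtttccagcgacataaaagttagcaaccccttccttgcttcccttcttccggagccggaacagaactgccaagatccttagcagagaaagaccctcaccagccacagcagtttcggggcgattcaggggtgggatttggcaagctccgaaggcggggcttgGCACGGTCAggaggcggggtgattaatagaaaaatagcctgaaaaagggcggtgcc
Cyp1b1 promoter, GRCm38.p6 chr17:79715062-79715311, minus strand: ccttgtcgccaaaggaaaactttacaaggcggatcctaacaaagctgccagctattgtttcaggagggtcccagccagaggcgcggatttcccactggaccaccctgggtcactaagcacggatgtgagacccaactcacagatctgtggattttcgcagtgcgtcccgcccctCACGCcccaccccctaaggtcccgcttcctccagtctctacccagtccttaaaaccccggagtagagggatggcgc
Gstm3 promoter, GRCm38.p6 chr3:107969175-107969424, minus strand: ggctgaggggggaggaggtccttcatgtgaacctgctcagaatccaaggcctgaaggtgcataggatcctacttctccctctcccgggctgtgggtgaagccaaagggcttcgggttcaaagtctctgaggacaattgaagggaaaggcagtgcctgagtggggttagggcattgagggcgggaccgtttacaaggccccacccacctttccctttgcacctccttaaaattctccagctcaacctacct
Gstm5 promoter, GRCm38.p6 chr3:107895604-107895853, plus strand: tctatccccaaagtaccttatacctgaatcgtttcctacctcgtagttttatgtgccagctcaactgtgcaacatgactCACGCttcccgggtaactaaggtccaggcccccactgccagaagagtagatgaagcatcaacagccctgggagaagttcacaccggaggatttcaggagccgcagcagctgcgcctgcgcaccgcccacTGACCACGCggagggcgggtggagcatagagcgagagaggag

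Mgst1 held 1 antioxidant core on the reverse strand from -56 to -48, and Cyp1b1 a xenobiotic core on the reverse strand from -76 to -72. Gstm3 held neither. In Gstm5 an antioxidant core ran from -42 to -34 and overlapped a reverse xenobiotic core from -38 to -34, with another xenobiotic core from -171 to -167. The antioxidant core was present in 11.5% of 27025 genes with a promoter in the table and in 6 of the 43 members that had one, and the xenobiotic core in 30.9% and in 14 of 43. Among members called lower in the Sox2-positive fraction each core was in 1 of 5, and among those called higher in 0 of 5 and 1 of 5 (Gstp1). The matches describe these letters in this window and nothing of binding.

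Mgst1 and Cyp1b1 set the fractions furthest apart. Mgst1, a glutathione transferase and peroxidase of the endoplasmic reticulum and outer mitochondrial membrane, read 2.82 and 3.56 on the Sox2-positive arrays against 9.18 and 7.89 on the Sox2-negative ones. The fall was 5.35 log2 units (SE 0.63, limma adjusted p = 0.0014), which is at least 23.2-fold, counted from the limit of 4. All Sox2-positive values lay under that limit and all Sox2-negative values far above it.

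Cyp1b1, which oxidises aromatic hydrocarbons and oestradiol, read 2.55 and 2.77 against 8.24 and 7.76. The fall of 5.34 (SE 1.17) is at least 16-fold, with a limma adjusted p of 0.021, and its second probe set went the same way with -4.27. The arrays within each fraction lay close together. The wide error of Cyp1b1 comes with iPSC in 2i, whose arrays a and b read 2.41 and 7.22 and enter the common variance.

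In the same direction went 3 further enzymes. Mgst2, which can form leukotriene from its epoxide, read 2.81 and 2.52 against 4.60 and 4.36, a fall of 1.81 (SE 0.34, limma adjusted p = 0.012). Aldh1a1, a retinaldehyde dehydrogenase, read 2.90 and 1.28 against 4.66 and 4.02 and fell by 2.25 (SE 0.56, limma adjusted p = 0.034). Gsto1 read 10.94 and 10.68 against 12.32 and 11.93, 2.49-fold lower (limma adjusted p = 0.023). Gsto1 was bright on every array, whereas Mgst2 and Aldh1a1 were under 4 in the Sox2-positive fraction and little above it in the other.

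Gstm3 had the largest rise. This mu-class transferase read 6.13 and 7.43 on the Sox2-positive arrays against 2.35 and 2.18 on the others, a difference of 4.52 (SE 0.66, limma adjusted p = 0.0042) and at least 6.87-fold. The groups were more than 3 log2 units apart at their nearest arrays.

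Aldh6a1 and Aldh7a1, a pair of enzymes of amino acid breakdown, were also higher in the Sox2-positive fraction. Aldh6a1, the methylmalonate semialdehyde dehydrogenase that acts on valine, read 7.13 and 7.90 against 6.01 and 4.05, 5.6-fold (difference 2.49, SE 0.59, limma adjusted p = 0.029). Aldh7a1, which acts on lysine, read 5.33 and 6.0 against 4.16 and 4.09, 2.91-fold (limma adjusted p = 0.022). The nearest arrays of the fractions were about 1 log2 unit apart for both.

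The other 3 rises were smaller. Akr7a5, a reductase of aflatoxin aldehyde, read 7.18 and 7.10 against 6.38 and 5.82, 2.06-fold, and Gstp1, the pi-class transferase, 11.84 and 11.94 against 10.72 and 11.02, 2.03-fold (limma adjusted p = 0.038 and 0.039). A second probe set of Akr7a5 had the same sign without a call, at 0.685 (adjusted p = 0.31 in limma over all 14012 probe sets). Aldh16a1 read 3.45 and 3.81 against 2.66 and 2.77 (limma adjusted p = 0.043), under 4 on all 4 arrays, so no fold is given.

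**Figure D2:**
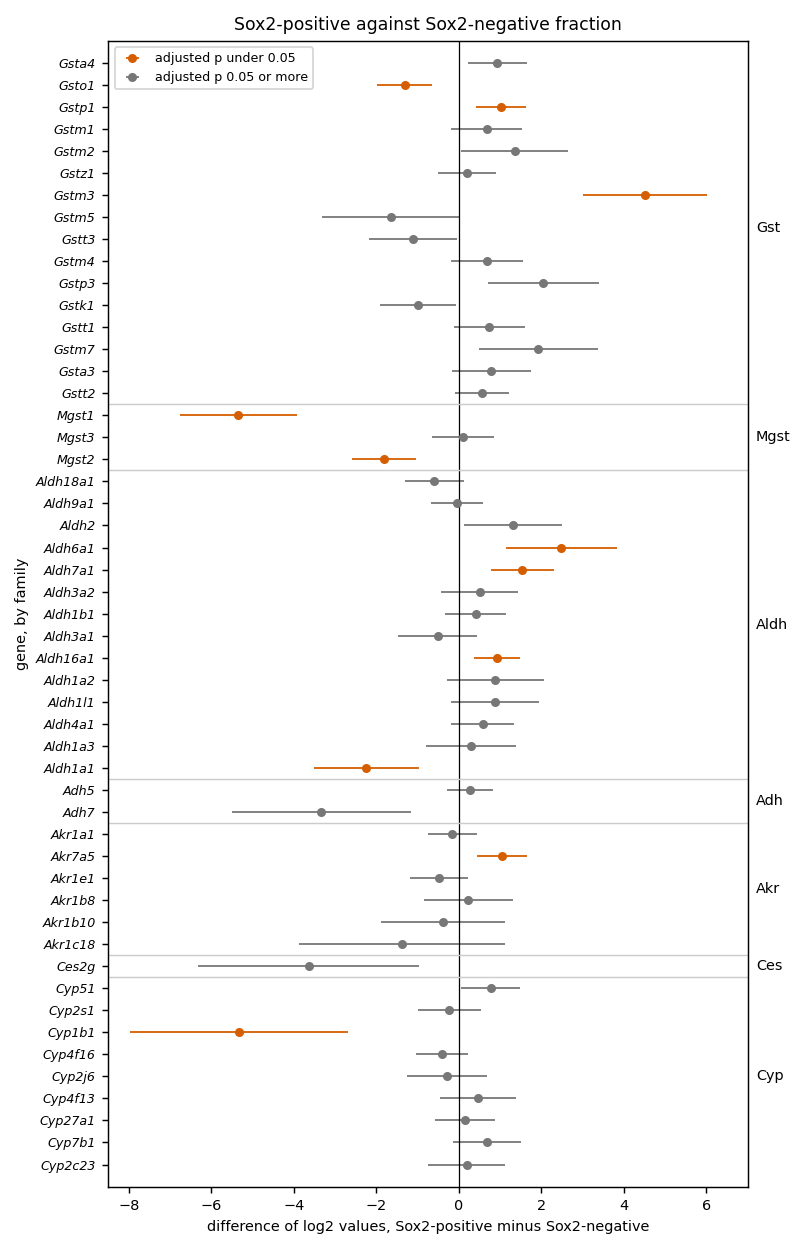
Difference of log2 values, Sox2-positive minus Sox2-negative, for the 51 enzymes by family, with the 95% confidence interval of the limma fit for each gene (points and bars, 2 arrays per fraction). Orange points have an adjusted p under 0.05. Mgst1 and Cyp1b1 lie furthest left at -5.35 and -5.34 and Gstm3 furthest right at 4.52.

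Some large differences missed the threshold where arrays of a fraction spread widely. Ces2g, a carboxylesterase, read 8.37 and 4.34 on the Sox2-positive arrays against 10.08 and 9.92, a difference of -3.65 (95% interval -6.34 to -0.95, limma adjusted p = 0.078). Adh7, the alcohol dehydrogenase that oxidises retinol, read 4.13 and 2.08 against 7.54 and 5.33 (-3.33, interval -5.50 to -1.16, limma adjusted p = 0.053). Gstp3 read 3.16 and 4.32 against 1.96 and 1.43 (2.05, interval 0.70 to 3.39, limma adjusted p = 0.055). The arrays of the fractions did not overlap for any of the 3, but the same held for 51.6% of all genes. The p leaves the differences undecided.

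The Gstm genes lie side by side on chromosome 3, in the order Gstm5, Gstm7, Gstm6, Gstm3, Gstm2, Gstm1 and Gstm4. Along that row the differences between the fractions were -1.65, 1.93, not measured (Gstm6 was under the filter), 4.52, 1.36, 0.68 and 0.68. Gstm3 was called, and the others were not. The probe sets of 8 members, Gstm3 and Gstm1 among them, carry a suffix for probes that match or may match other transcripts (s_at in 3, x_at in 5), so signal from a near copy cannot be separated.

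For 13 members more than 1 probe set had passed, and in 4 of them the probe sets differed in sign between the fractions. The widest split was in Cyp51, whose brightest probe set gave 0.78 (adjusted p = 0.15 in limma over all 14012 probe sets), another 1.15 (0.033) and the dimmest -1.78 (0.035). Aldh2, the mitochondrial acetaldehyde dehydrogenase, gave 1.32 at its brightest probe set (0.14) and 1.99 at another (0.019). No direction is given for Cyp51.

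The calls between the fractions leaned on single arrays. Mgst1 kept its call in every alternative tried, with differences from -5.99 to -4.54, and Gstm3 lost it when values under 4 were set to 4 (limma adjusted p = 0.0524). Cyp1b1 lost it when any of the 4 arrays was left out (adjusted p 0.059 to 0.084), and the other 8 lost it without Sox2-positive array b. The count of 11 fell without that array, as did the share of all genes called. It also fell without Sox2-negative array a or b, where the share of all genes is not given here.

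Markers of other cell types moved with these enzymes. The summed log2 level of 6 measured adipocyte markers of 8 was 37.5 to 39.0 on the Sox2-negative and 17.98 to 19.3 on the Sox2-positive arrays, and Adipoq and Cebpa were under 4 in both fractions. The 10 measured fibroblast markers of 14 summed to 53.4 to 56.7 against 38.7 to 39.0, with Col1a2 and Pdgfra under 4 in both, and 4 squamous keratinocyte markers of 7 to 19.0 to 19.8 against 10.3 to 10.5, with Krt14 and Sfn under 4 in both. Most of that last gap was Krt6b, at 8.32 and 11.13 against 2.19 and 3.25, while Krt6a read 4.01 and 1.64 against 2.04 and 1.06. Epithelial markers (8 of 8) summed to 37.5 to 39.2 in the Sox2-negative and 51.2 to 52.3 in the Sox2-positive fraction. Krt8, at 8.19 and 7.93 against 7.23 and 6.1, and Krt19, at 3.96 and 3.67 against 2.31 and 2.96, went the other way. The rest of the epithelial list had lower means in the Sox2-negative fraction. The 12 pluripotency markers summed to 61.3 to 65.1 and 117 to 122, with Pou5f1 overlapping between the fractions. Fabp4, the fatty acid carrier of adipocytes, read 12.15 and 11.25 on the Sox2-negative arrays against 5.43 and 5.14.

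Few markers of 4 other types were measured. Hnf4a, the single hepatocyte marker of 8, was under 4 on all fraction arrays. Of the macrophage markers 2 of 8 were measured and summed to 6.61 to 6.93 in the Sox2-negative and 9.61 to 9.86 in the Sox2-positive fraction, and 2 of 6 endothelial markers to 8.28 to 8.83 and 11.8 to 12.5. The macrophage gap lay in Cd68, with Fcer1g under 4 in both fractions. The endothelial gap lay in Pecam1, at 2.69 and 2.3 against 6.8 and 7.57, while Tek overlapped, at 5.59 and 6.53 against 5.72 and 4.25. For primitive endoderm 3 of 6 were measured, which summed to at most 10.8 and 10.9. The part of any cell type in the enzyme differences was not tested, and in such bulk samples fewer cells of a type and less RNA per cell cannot be told apart.

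The rest of the detoxification network was read from 8 gene lists. Of 142 listed genes 96 were measured, and 13 were higher and 5 lower in the Sox2-positive fraction, 18.8% beside 12.5% of all genes (6.86% higher, 5.65% lower). The median difference over the 96 was 0.40, beside -0.02 over all genes.

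Of the glutathione genes 5 of 14 measured were higher and 1 lower, 42.9% beside the 12.5% of all genes, and the other lists had between 9.09% and 23.1% called. The glutathione calls were all peroxidases and Chac1. The synthesis genes Gclc, Gclm and Gss and the reductase Gsr were not called (limma adjusted p 0.38, 0.59, 0.54 and 0.38). The glutathione peroxidases Gpx2, Gpx7, Gpx3 and Gpx4, the last of which reduces lipid hydroperoxides, were higher by 2.92, 2.39, 2.43 and 1.40 log2 units (limma adjusted p 0.0099, 0.018, 0.030 and 0.023). Gpx8 was lower by 1.65 (0.033), and Chac1, which degrades glutathione, higher by 3.12 (0.021). The Nrf2 list had 2 of 17 higher, Taldo1 of the pentose phosphate pathway by 1.35 (0.017) and heme oxygenase Hmox1 by 1.47 (0.028).

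Among 12 measured conjugation and hydrolysis enzymes, Ephx2, the soluble epoxide hydrolase, was higher by 4.32 and at least 8.57-fold (limma adjusted p = 6.4e-04), and Pon2 was lower by 1.55 (0.015). Abcb1a, a P-glycoprotein efflux pump, was the single call among 6 transporters and was higher by 3.80, at least 4.79-fold (limma adjusted p = 0.0018). The related Abcb1b, at 8.67 against 9.375, and Abcc1 went the other way without a call (-0.705 and -1.255, limma adjusted p 0.16 and 0.053). The remaining transporters were higher without a call. Cyb5r3, a cytochrome b5 reductase, was 1 of 11 genes of P450 electron transfer and heme and was higher by 1.14 (0.042).

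Of 7 measured nuclear and xenobiotic receptors, Pparg, the fatty acid sensor of adipocytes, was lower by 3.37 and at least 4.24-fold (limma adjusted p = 8.6e-04). Among 13 retinoid partners the retinol carrier Rbp4 was lower by 2.46 (0.0026), while the binding protein Crabp1 and the receptor Rara were higher by 1.90 (0.013) and 0.95 (0.034). In cholesterol synthesis 2 of 17 were called, with Lss, the lanosterol synthase, higher by 1.16 (0.043) and Hsd17b7 lower by 1.90 (0.0078). The count of 18 fell without Sox2-positive array b, as did the share of all genes called, and without Sox2-negative array a.

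Against iPSC with MEFs, the Sox2-negative fraction differed in 25 of the 51 enzymes, 13 higher and 12 lower. This is 49.0% of the members beside 47.5% of all genes, so close to the background. Of all genes 12% were higher and 35.6% lower, with a median shift of -0.51. With quantile normalization the members split 14 higher and 8 lower, beside 1409 and 1494 of all genes, and with median centring 15 and 10, beside 1633 and 1880. The count fell without array a of iPSC with MEFs, where the share of all genes called is not given here.

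Enzymes that were nearly dark in iPSC with MEFs stood out. Ces2g read 1.60 and 1.51 there and 10.08 and 9.92 in the Sox2-negative fraction, a rise of 8.45 and at least 64-fold (SE 1.19, limma adjusted p = 8.1e-04). Mgst1 read 2.98 and 2.80 and rose by 5.65, at least 23.2-fold (limma adjusted p = 3.2e-04). Adh7 at 1.59 and 1.53 and Cyp1b1 at 3.15 and 3.33 rose by 4.88 and 4.76, at least 5.41-fold and 16-fold (limma adjusted p = 0.0035 and 0.0096). All 4 lay under 4 on both arrays of iPSC with MEFs.

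Retinoid and aldehyde enzymes were among them. Aldh1a1 read 1.27 and 1.12 in iPSC with MEFs and rose by 3.15, and Aldh3a1, which oxidises aromatic and lipid aldehydes, read 1.77 and 2.35 there and 5.31 and 5.55 in the Sox2-negative fraction, at least 2.69-fold (limma adjusted p = 5.1e-04). Mgst2 and Gstm5 rose by 2.21 and 2.58. Aldh1a2, the retinaldehyde dehydrogenase of the early embryo, went the other way, from 5.24 and 4.48 in iPSC with MEFs to 2.90 and 2.36 in the Sox2-negative fraction (difference -2.23, limma adjusted p = 0.0075).

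The falls were led by Aldh7a1, from 7.32 and 7.05 to 4.16 and 4.09, 8.34-fold (limma adjusted p = 3.2e-04), and Aldh6a1, from 7.90 and 7.84 to 6.01 and 4.05, 7.16-fold (0.0045). Gstm3 fell by 2.78 and at least 2.06-fold, Akr7a5 3.81-fold, Gsta4 3.31-fold and Aldh1b1, a mitochondrial aldehyde dehydrogenase, at least 2.44-fold (limma adjusted p 0.0084, 8.0e-04, 0.0026 and 0.0035). Cyp7b1, an oxysterol hydroxylase, was lower by 1.46 (limma adjusted p = 0.010) and under 4 on all 4 arrays. With values under 4 set to 4 the calls of Cyp7b1, Gstm3, Adh7, Aldh1a1 and Mgst2 were lost (limma adjusted p 1, 0.28, 0.060, 0.59 and 0.26), and that of Gsta4 under quantile normalization (0.083). Without array a of iPSC with MEFs Cyp1b1, Gstm3 and Aldh1a2 lost theirs (0.057, 0.057 and 0.065), without its array b Cyp7b1 (0.069), and Gstm5 without any of the 4 arrays (0.0502 to 0.11).

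In the Sox2-positive fraction 11 enzymes differed from iPSC with MEFs, 5 higher and 6 lower, or 21.6% beside 35.9% of all genes (6.13% higher, 29.8% lower, median shift -0.46). No Gst gene was among them, of 16. With quantile normalization 6 were higher and 1 lower, beside 738 and 778 of all genes, and with median centring 9 and 1, beside 1009 and 1159, so the balance of members and of all genes (527 and 2561 before) depended on the scaling. The count was 1 without array a of iPSC with MEFs, 2 without its array b and 6 without Sox2-positive array a.

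Ces2g and Aldh3a1 were again higher. Ces2g read 8.37 and 4.34 in the Sox2-positive fraction and rose by 4.80 (SE 1.19, at least 5.12-fold, limma adjusted p = 0.015), and Aldh3a1 read 5.52 and 4.31 and rose by 2.86, at least 1.89-fold (0.0021). Both fractions share the iPSC with MEFs arrays as reference. Cyp2j6, an epoxygenase of arachidonic acid, Mgst3 and Akr1e1 were higher by 1.61, 1.06 and 0.98 (limma adjusted p 0.019, 0.035 and 0.038). With values under 4 set to 4, Ces2g, Aldh3a1, Cyp2j6 and Akr1e1 lost the call (adjusted p 0.21, 0.12, 0.84 and 0.053). With single arrays left out, Ces2g, Cyp2j6, Mgst3 and Akr1e1 lost it, at limma adjusted p of up to 0.077, 0.12, 0.17 and 0.22.

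Lower in the Sox2-positive fraction were Aldh7a1 by 2.87-fold, Aldh1b1 by 2.39-fold, Aldh9a1 by 2.21-fold, Aldh18a1 by 2.08-fold, Adh5 by 1.99-fold and Akr7a5 by 1.85-fold (limma adjusted p 0.0097, 0.018, 0.014, 0.029, 0.015 and 0.031). The median gene fell by 0.46 in the same comparison. After quantile normalization Adh5, Akr7a5, Aldh18a1 and Aldh9a1 were lower by 0.18 to 0.28 with adjusted p of 0.47 to 0.75, and Aldh7a1 by 0.99 (0.073), and with median centring Aldh1b1 by 0.81 (0.096).

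Day 32 cells against iPSC in 2i, both in the other array class, gave 11 enzymes higher and 3 lower, 27.5% beside 7.73% of all genes (5.23% higher, 2.5% lower). The count fell without day 32 array a, 2i array a or 2i array b. The shares of all genes called in those fits are not given here. Of 3 Mgst genes 2 rose, of 16 Gst genes 2 rose and 1 fell, of 14 Aldh genes 2 rose and 1 fell, and of 9 Cyp genes 2 rose and 1 fell. Adh7, Ces2g and Akr1e1 also rose.

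Mgst1, Mgst2 and Aldh1a1 kept the call in every alternative tried. Mgst1 read 10.93 and 9.52 at day 32 and 3.81 and 5.24 in 2i, 52-fold (difference 5.70, SE 0.63, limma adjusted p = 0.0023). Mgst2 read 6.78 and 5.75 against 3.27 and 3.17, at least 4.81-fold, and Aldh1a1 6.81 and 5.45 against 1.81 and 1.78, at least 4.38-fold (limma adjusted p = 0.0023 and 0.0034). The arrays were far apart between groups and within about 1.4 log2 units inside them.

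Ces2g and Adh7 also rose. Ces2g read 11.04 and 8.13 at day 32 against 2.84 and 3.23, at least 48-fold, and Adh7 9.49 and 6.89 against 2.40 and 2.55, at least 18.3-fold (limma adjusted p = 0.015 and 0.011). Without day 32 array a their adjusted p were 0.12 and 0.082. Akr1c18, which inactivates progesterone, read 8.16 on day 32 array a and 3.82 on array b and was not called.

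Gstm5 was higher by 3.03, Cyp2j6 by 2.45 and the kappa-class Gstk1 by 1.79 (limma adjusted p 0.040, 0.013 and 0.032). Lower were Gsta3, from 4.60 and 6.13 in 2i to 3.13 and 3.14, and Cyp7b1, from 5.02 and 4.91 to 2.61 and 3.32, differences of -2.23 and -2.0 (limma adjusted p = 0.017 and 0.015). Aldh16a1 was lower by 1.0 (0.041). Gstm5 lost its call without a filter (limma adjusted p = 0.071), and Gstm5 and Gstk1 under quantile normalization (0.071 and 0.087). With values under 4 set to 4 Gstk1 and Gsta3 lost theirs (0.069 and 0.082). With compared arrays only Cyp2j6, Gstk1, Gsta3 and Aldh16a1 did (0.068, 0.076, 0.094 and 0.081), and with a variance trend Aldh16a1 (0.073). Gsta3 and Cyp7b1 had entered the members through the 2i arrays, so their fall was partly built in. Mgst2, Aldh1a1 and Gstk1 were above 4 on the day 32 and Sox2-negative arrays only. They thus entered the members through groups where they were high, day 32 among them.

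Cyp1b1 was not called at day 32, with 9.54 and 8.81 there and 2.41 and 7.22 on 2i arrays a and b. On 2i array b the fibroblast markers summed to 55.7 against 47.3 on array a. The collagens Col1a1 and Col3a1 read 6.86 and 5.0 on array b, against 5.07 and 2.62. Pdgfrb went the other way, at 5.53 against 7.23, Col1a2 was level at 2.44 and 2.45, and the other measured fibroblast markers were higher on array b. The part of fibroblasts in the Cyp1b1 value was not tested.

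The marker sums moved at day 32 as well. Adipocyte markers summed to 42.0 to 45.2 at day 32 and 22.4 to 25.0 in 2i, fibroblast markers to 68.2 to 68.9 and 47.3 to 55.7, and squamous keratinocyte markers to 25.0 to 27.1 and 14.8 to 15.2. In that last sum Krt6b read 8.76 and 11.03 against 1.98 and 1.88, and Sfn was lower at day 32. Primitive endoderm markers summed to 17.1 to 18.9 and 10.7 to 12.2. Lower at day 32 were the pluripotency (117 to 131 and 134 to 138) and endothelial sums (12.1 to 12.2 and 12.6 to 13.6). In the endothelial sum Pecam1 was lower at day 32, at 3.98 and 4.74 against 6.33 and 5.76, and Tek was higher, at 8.11 and 7.47 against 7.26 and 6.85. The epithelial, macrophage and hepatocyte sums overlapped. No adipocyte marker was under 4 on both day 32 arrays. The part of these cells in the enzyme values was not tested.

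**Figure D3:**
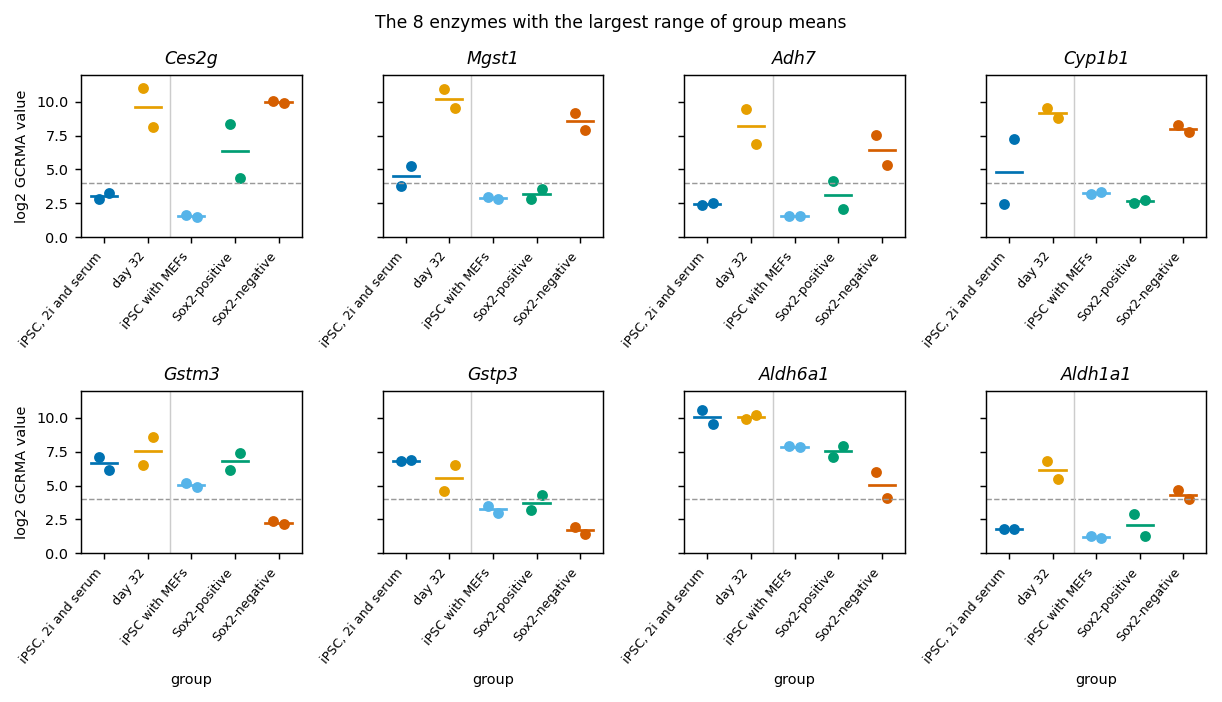
Log2 GCRMA value on each array (points) and mean of the 2 arrays (short line) for the 8 enzymes whose group means spanned the widest range. The dashed line is the limit of 4, and the grey vertical line separates the array classes. Ces2g, Mgst1, Adh7, Cyp1b1 and Aldh1a1 are highest at day 32 and in the Sox2-negative fraction, Gstm3 and Gstp3 lowest in the latter.

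Across the 5 groups the widest ranges of group means belonged to Ces2g (8.45 log2 units), Mgst1 (7.34), Adh7 (6.63), Cyp1b1 (6.52), Gstm3 (5.31), Gstp3 (5.14), Aldh6a1 (5.05) and Aldh1a1 (4.94). These orders cross the array classes and are descriptions. Mgst1 ran from 10.23 at day 32 over 8.54 in the Sox2-negative fraction and 4.53 in 2i to 3.19 in the Sox2-positive fraction and 2.89 in iPSC with MEFs, and the last pair overlapped. Ces2g ran from the Sox2-negative fraction over day 32 at 9.59, 6.36 in the Sox2-positive fraction and 3.04 in 2i to 1.56 in iPSC with MEFs, and neighbours among the first 3 overlapped.

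Cyp1b1 and Aldh1a1 shared the order of the upper groups with Mgst1. In both, day 32 was above the Sox2-negative fraction without overlap, at 9.18 over 8.0 and 6.13 over 4.34. Gstm3 was highest at day 32 (7.58), then in the Sox2-positive fraction (6.78) and 2i (6.63), which overlapped with day 32 and each other, then in iPSC with MEFs (5.05), and was lowest in the Sox2-negative fraction (2.27). Gstp3 and Aldh6a1 had their lowest means in that fraction too, at 1.70 and 5.03.

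The members whose 5 group means ran most like those of Mgst1 were Cyp1b1, Gstk1 and Mgst2, with Pearson r of 0.99, 0.98 and 0.97. For Gstm3 they were Gstm7, Aldh6a1 and Gstt1, with 0.96, 0.88 and 0.86. Each r rests on 5 means that share the array classes, and is a description.

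The pair of iPSC cultures, which lie in different classes, came last. In 2i 28 enzymes were higher than in iPSC with MEFs and 1 lower, 56.9% beside 61.1% of all genes (52.9% higher, 8.15% lower), and the median of all genes was shifted by 1.01. With quantile normalization the split was 8 higher and 3 lower, beside 1490 and 1491 of all genes, and with median centring 7 and 7, beside 1311 and 2522. Gsta3, Aldh1a3 and Cyp7b1 are among the 28, at probe sets that passed the filter through the 2i arrays alone, so their rise was partly built in. Aldh1l1, Aldh16a1, Aldh4a1, Gstt2, Cyp27a1 and Cyp2c23, also among the 28, were above 4 on 2i and day 32 arrays only. Their rise was thus partly built in as well. Growth condition, array class and the MEFs cannot be told apart here.

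Above that shift lay Gstp3, at 6.8 and 6.86 against 3.46 and 3.01 (at least 7.11-fold), Cyp4f16 at 7.39 and 6.83 against 4.08 and 4.02 (8.34-fold) and Mgst3 at 6.93 and 6.67 against 3.93 and 4.03 (7.06-fold), with limma adjusted p of 9.2e-04, 7.1e-05 and 1.9e-04. Aldh1l1, the formyltetrahydrofolate dehydrogenase, was higher by 2.81 (0.0010), and it was above 4 on 2i and day 32 arrays only. These 4 kept direction and call in every alternative, as did Adh5, which was lower in 2i at 11.66 and 11.78 against 12.75 and 12.73 (difference -1.02, limma adjusted p = 0.0064).

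A further 4 were called before scaling. Gstm2, Aldh3a2 (the fatty aldehyde dehydrogenase), Aldh2 and Akr1b10 were higher by 2.88, 2.61, 2.51 and 2.33. Gstm2, Aldh3a2 and Akr1b10 lost the call under quantile normalization (limma adjusted p 0.062, 0.0635 and 0.26), and Aldh2 and Akr1b10 under median centring (0.084 and 0.22).

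**Figure D4:**
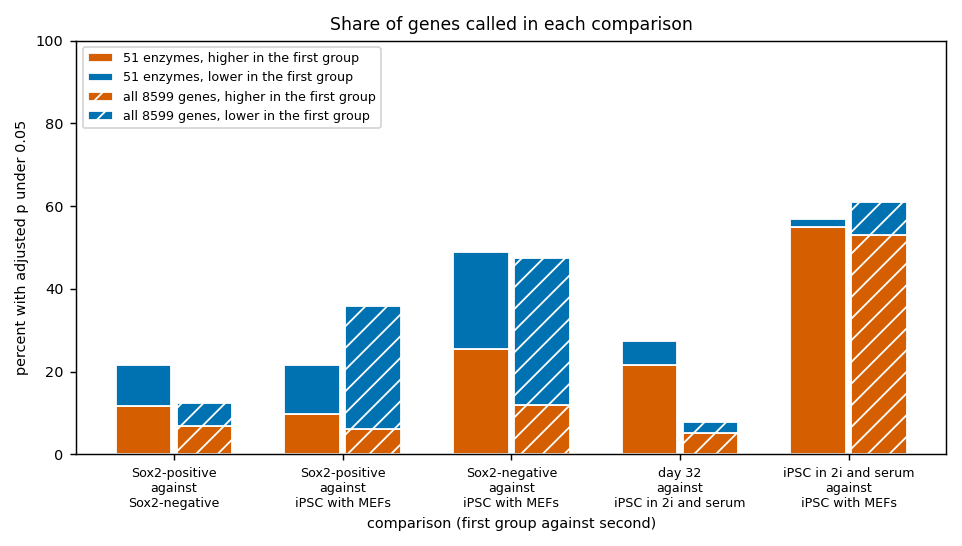
Percent of the 51 enzymes (plain bars) and of all 8599 genes (hatched bars) with an adjusted p under 0.05 in each of 5 comparisons, split into higher (orange) and lower (blue) in the first group named. The enzymes stand at 21.6% against 12.5% between the fractions and at 27.5% against 7.73% for day 32 against iPSC in 2i, and at 56.9% against 61.1% between the iPSC cultures.

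The 8 pathway lists were counted in the other comparisons too. Of 96 measured genes 6 were higher and 42 lower in the Sox2-negative fraction against iPSC with MEFs, and 6 and 28 in the Sox2-positive fraction. At day 32 against 2i, 6 were higher and 4 lower, and in 2i against iPSC with MEFs 53 and 6. In all 48 of the 96 were called in the first of these, beside 47.5% of all genes. The shares in the rest, in the order given, were 35.4%, 10.4% and 61.5% of the listed genes, beside 35.9%, 7.73% and 61.1% of all genes, so all lay near the background. The Sox2-positive count of 34 fell without array a or b of iPSC with MEFs or without Sox2-positive array a. It was 21 (11 higher, 10 lower) with median centring. The day 32 count of 10 fell without day 32 array a, 2i array a or 2i array b. The shares of all genes called with these arrays left out are not given here.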

How the data were processed

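The deposited log2 expression values of 10 Affymetrix arrays were used as they were. Per the submitters' processing notes the authors computed these log2 values by GCRMA in the affy package, with no version given. Per the labels, Trizol RNA was amplified with either of 2 NuGEN kits, without saying which sample had which. Of 22690 probe sets 64 were controls, 20380 had a single symbol, 691 several and 1555 none. A single symbol and a log2 value above 4 on 2 arrays were required, which left 14012 probe sets, and the brightest per gene gave 8599 genes. 7 probe sets with several symbols of these families were left out.

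Groups were compared in limma 3.58.1 (R 4.3.3), in 1 model of all 10 arrays with a mean per group (5 residual degrees of freedom), and p-values were Benjamini-Hochberg adjusted over the 8599 genes. Where the lower group was under 4 on every array, a fold counts from 4 and is a lower bound, and none is given where the higher mean is 4 or less. An exact permutation test of 2 against 2 arrays cannot go below p = 0.333, and so few arrays limit the precision. The fit was tested on simulated data. The members, gene lists and rules were chosen with earlier results of these data known. Named are members called without overlap between arrays (up to 10 rises and 10 falls between the fractions, 8 in the other comparisons), the 2 brightest per family, the 8 with the widest range, up to 4 called genes per list, and the 3 most like members by correlation. The Gstm cluster, Akr1c18 and genes whose probe sets split were chosen after their values were seen. Promoters are RefSeq's for GRCm38.p6, present for 43 of the 51 members. Alternatives were other filters, probe set rules, scalings, variance models, a replicate block and leaving out each array.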

Additional observations from a re-analysis of the deposited data

How the results depend on the processing

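Of 58 member differences named, 0 reversed in any alternative run and 16 kept direction and call in every one. Calls were lost in 16 with values under 4 set to 4, 14 with quantile normalization, 12 with compared arrays only, 8 with array weights, 7 with median centring, 3 each without a filter, with the mean of probe sets and with a variance trend, and 0 with a filter at 6 among those still measured. Of the member counts, the 11 between the fractions became 6 with values under 4 set to 4, 4 with compared arrays only and 3 with array weights, and 2 to 15 with an array left out. The 11 of the Sox2-positive fraction against iPSC with MEFs became 7 with quantile normalization and 7 with values under 4 set to 4, and 1 to 11 with an array left out. The 25 of the Sox2-negative fraction became 16 to 23 with an array left out. The 14 of day 32 became 6 with a filter at 6 and 8 with compared arrays only, and 3 to 15 with an array left out. The 29 between the iPSC cultures became 61 without a filter (60 of them higher), 13 with a filter at 6, 11 with quantile normalization and 14 with median centring, and 20 to 26 with an array left out. Where an array was left out, the lone array of a group was assumed to vary like the other groups. The share of all genes called between the fractions became 3.76% with compared arrays only and 4.70% without Sox2-positive array b. It did not always move with the members: it was 12.2% without Sox2-positive array a, 56.6% between the iPSC cultures without a filter and 6.45% at day 32 with a filter at 6.

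The list counts between the fractions moved as follows. The 6 glutathione genes became 3 with values under 4 set to 4, 3 with compared arrays only, 1 with array weights and 1 to 5 with an array left out. The 2 Nrf2 genes became 0 with compared arrays only and with array weights, and 0 to 2 with an array left out. The 2 conjugation genes became 4 without a filter, 1 with a filter at 6, with values under 4 set to 4, with compared arrays only and with array weights, and 1 to 2 with an array left out. The 1 electron transfer gene became 0 with quantile normalization, compared arrays only and array weights, and 0 to 1 with an array left out. The 1 receptor became 1 to 2 with an array left out, the 3 retinoid genes 1 with values under 4 set to 4, compared arrays only and array weights and 1 to 3 with an array left out. The 2 cholesterol genes became 1 without a filter, 0 with compared arrays only, 1 with array weights, and 0 to 2 with an array left out. The 1 transporter became 2 with a filter at 6, quantile normalization and a variance trend, and 1 to 2 with an array left out. All 18 became 7 with compared arrays only, 6 with array weights and 5 to 16 with an array left out. The 34 of the Sox2-positive fraction against iPSC with MEFs became 11 with quantile normalization, 21 with median centring and 11 to 28 with an array left out, and the 10 of day 32 became 5 with compared arrays only, 19 with array weights and 2 to 12 with an array left out. The cause was not tested.

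The labels do not say that the letters a and b pair samples, or whether the fractions and the day 32 arrays came from the same cells. Deviations of same-lettered arrays correlated at 0.05 between the fractions, at 0.33 and 0.21 between day 32 and the Sox2-positive and Sox2-negative fraction, and between -0.06 and 0.04 otherwise, so the letters were not treated as pairs. With a replicate block the member counts were 14, 11, 25, 14 and 29 in the order above, the receptor and transporter counts 2 each, and 0 named calls were lost.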
